A study of Homo sapiens with 6 samples.

Results

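BMF is a pro-apoptotic gene of the BCL2 family, and its transcript was followed here together with those of 9 relatives in U2OS cells with and without silencing of SQLE. The 10 genes were taken from the rows of the count table by their Ensembl identifiers, and all 10 were found among 19937 genes: the BH3-only genes BMF, BCL2L11, BBC3, PMAIP1 and BID, the anti-apoptotic genes BCL2, BCL2L1 and MCL1, and the effectors BAX and BAK1. They were selected on family membership with the difference between shSQLE and shControl cells in these libraries already known, so their values are given as a description, without a p-value, and how many of them were called is only set beside the share of all genes. The cells, U2OS, are a long-established line from a human osteosarcoma. Both groups were stable lines selected with puromycin after lentiviral delivery of a pGIPZ vector: 3 libraries came from cells with a hairpin against SQLE (shSQLE) and 3 from cells with a scrambled hairpin (shControl). Which of the hairpins designed against SQLE was used, and whether a line was clonal, is not given in the sources used here. Nothing in them ties the replicates of a group to separate cultures, so SDs and p-values measure the spread between these libraries, which may be technical. The study also measured apoptosis in such cells and reported that it rose after SQLE knockdown, with and without drug treatment. The comparison here asks how the transcripts of the genes that control mitochondrial apoptosis stood in the same pair of lines. Apoptosis itself cannot be read from these libraries.

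The BCL2 family decides whether the outer membrane of the mitochondrion is opened. BAX and BAK1 form the pores, the anti-apoptotic proteins hold them and the BH3-only proteins in check, and the BH3-only proteins report damage by binding their relatives through a short helix, the BH3 domain. BMF is kept on the cytoskeleton by a dynein light chain and is known for its response to loss of attachment. BCL2L11 encodes BIM, BBC3 encodes PUMA, PMAIP1 encodes NOXA and BCL2L1 encodes BCL-XL.

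The BH3 domain is the feature that all 10 genes share, and its coding bases are shown to identify the genes compared. In the canonical transcript of each gene (GENCODE v44, hg38) the coding sequence held exactly 1 stretch of leucine, any 3 residues, glycine or alanine, and aspartate. The 33 bases from that leucine are printed 5′ to 3′ on the coding strand, all in coding exons, with the codons of the leucine, the glycine or alanine, and the aspartate in capitals.
BMF, chr15:40104192-40104224, - strand, exon 4: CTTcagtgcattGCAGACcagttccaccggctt
BCL2L11, chr2:111150103-111150135, + strand, exon 3: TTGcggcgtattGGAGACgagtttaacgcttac
BBC3, chr19:47226576-47226608, - strand, exon 3: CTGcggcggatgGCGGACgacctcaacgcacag
PMAIP1, chr18:59902673-59902705, + strand, exon 2: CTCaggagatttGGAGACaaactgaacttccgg
BID, chr22:17739412-17739444, - strand, exon 4: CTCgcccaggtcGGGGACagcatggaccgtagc
BCL2, chr18:63318346-63318378, - strand, exon 2: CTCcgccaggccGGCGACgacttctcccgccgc
BCL2L1, chr20:31721919-31721951, - strand, exon 2: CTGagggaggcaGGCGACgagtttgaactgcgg
MCL1, chr1:150578862-150578894, - strand, exon 1: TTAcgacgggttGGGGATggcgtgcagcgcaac
BAX, chr19:48955787-48955819, + strand, exon 3: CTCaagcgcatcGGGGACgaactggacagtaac
BAK1, chr6:33575384-33575416, - strand, exon 4: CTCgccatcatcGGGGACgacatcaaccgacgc
The small residue before the aspartate was alanine (GCN codons) in BMF and BBC3 and glycine (GGN codons) in the other 8 genes.

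The libraries held between about 12212400 and about 14393300 counts on genes. Counts of SQLE, the targeted gene, were 1168, 2065 and 1961 in libraries 1, 2 and 3 of shControl and 234, 207 and 213 in those of shSQLE, so that the mean normalized count in shSQLE was 12.7% of that in shControl (log2 fold change -2.98, standard error 0.17, adjusted p = 0.000299 by the edgeR fit). ShControl replicate 1 stood apart from its group. The chi-square per degree of freedom of its counts against the other control libraries was 53.9 and 63.8, while shControl replicates 2 and 3 differed by 2.83 and the shSQLE pairs by 3.40 to 15.9. Its deviation from the mean of all libraries rose with the GC content of the transcript (Spearman correlation 0.69 across 12447 genes, which are not independent replicates), whereas the correlations of the other control libraries were -0.49 and -0.55. Those of shSQLE replicates 1, 2 and 3 were 0.11, 0.35 and -0.35, so the groups also differed in this trend without shControl replicate 1. Values without shControl replicate 1 are given beside the results whose call changed. Among the markers of other cell types, PTPRC and CD3E of leukocytes were at 0 in every library, and the sums over the 3 endothelial markers were at most 0.363 TPM. Of the 8 markers of the osteoblast lineage and mesenchyme 5 had more than 3 counts in each library, led by VIM and SPARC, while ALPL, COL1A2 and BGLAP did not. The epithelial markers summed to 1259 to 1696 TPM in shControl and 1450 to 1590 TPM in shSQLE, nearly all from the keratin genes KRT8 and KRT18. Of the other epithelial markers, EPCAM had 46 to 76 counts, and CDH1 and KRT19 had at most 3 in any library.

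BMF differed most among the 10 genes. Its normalized count, scaled to the mean effective size of the libraries, was 360, 317 and 315 in libraries 1, 2 and 3 of shControl and 81.3, 67.0 and 71.9 in those of shSQLE. Each shSQLE library lay far below each control library. The means were 331 ± 25.5 and 73.4 ± 7.24 (SD, n = 3 each), so that shSQLE stood at 22.2% of shControl, or 4.51-fold lower. The log2 fold change was -2.17 with a standard error of 0.15, which ranked 70 from the lowest of the 12450 genes tested. BMF (ENSG00000104081) lies on the - strand of chromosome 15, from 40087890 to 40108892, and an antisense RNA gene, BMF-AS1, overlaps it. Whether the counting used the strand is not stated, so reads of that antisense gene cannot be told apart from those of BMF.

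Among the other BH3-only genes, PMAIP1 showed the next largest difference. NOXA, its product, binds MCL1. PMAIP1 had normalized counts of 2775, 4582 and 4737 in libraries 1, 2 and 3 of shControl and of 1805, 1412 and 1531 in those of shSQLE. All shSQLE libraries were below all control libraries, and shControl replicate 1 lay nearest to them. The log2 fold change was -1.35 (standard error 0.21), and -1.56 (standard error 0.10) without shControl replicate 1.

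BBC3 encodes PUMA, a BH3-only protein that cellular stress is known to induce. Its normalized counts were 155, 122 and 99.1 in libraries 1, 2 and 3 of shControl and 83.2, 95.6 and 68.9 in those of shSQLE. The lowest control library lay just above the highest shSQLE library, and the gap between them was narrower than the SD of each group. The log2 fold change was -0.60 (standard error 0.22), and -0.42 without shControl replicate 1.

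BCL2L11 and BID overlapped between the groups. BIM, the product of BCL2L11, binds all the anti-apoptotic relatives, and BID is cut by caspase-8 to carry the signal of death receptors to mitochondria. BCL2L11 had 219, 273 and 268 normalized counts in libraries 1, 2 and 3 of shControl and 218, 231 and 249 in those of shSQLE (log2 fold change -0.13, standard error 0.14). BID had 561, 430 and 420 in shControl and 511, 542 and 431 in shSQLE (log2 fold change 0.07, standard error 0.16, and 0.22 without shControl replicate 1). The sequence of BCL2L11 overlaps MIR4435-2HG on the opposite strand, which limits its count in the same way as for BMF. BBC3, BCL2, BCL2L1 and BAK1 also overlap an annotated gene on the opposite strand, while PMAIP1 and BAX overlap none.

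MCL1 was the anti-apoptotic gene with the largest difference. Its protein is short-lived and binds BAK1, NOXA and BIM. MCL1 had 9099, 10674 and 11119 normalized counts in libraries 1, 2 and 3 of shControl and 7986, 7755 and 8989 in those of shSQLE. The groups did not overlap, but shSQLE replicate 3 came close to shControl replicate 1. The log2 fold change was -0.32 (standard error 0.12), and MCL1 overlaps the protein-coding gene ADAMTSL4 on the opposite strand.

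BCL2 and BCL2L1 overlapped between the groups. BCL2 had 94.7, 194 and 208 normalized counts in libraries 1, 2 and 3 of shControl and 143, 145 and 179 in those of shSQLE. The control library that stood apart lay below all shSQLE libraries and the other control libraries lay above them, so that the log2 fold change of -0.10 (standard error 0.28) became -0.37 without it and 0.11 without shControl replicate 3. BCL2L1 had 1566, 1335 and 1233 in shControl and 1472, 1657 and 1389 in shSQLE (log2 fold change 0.13, standard error 0.13).

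The effectors BAX and BAK1 overlapped between the groups as well. BAX had 2042, 1199 and 1159 normalized counts in libraries 1, 2 and 3 of shControl and 1610, 1837 and 1383 in those of shSQLE. BAK1 had 963, 619 and 592 in shControl and 818, 889 and 713 in shSQLE. In both genes shControl replicate 1 was the highest library of all 6, and the other control libraries were the lowest. The log2 fold changes were 0.14 (standard error 0.23) for BAX and 0.16 (standard error 0.20) for BAK1, and they were 0.45 and 0.41 without shControl replicate 1.

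All 10 genes passed the filter on low counts. Of them, 2 (BMF and PMAIP1) were called lower at an adjusted p under 0.05 with the quasi-likelihood test of edgeR, adjusted by Benjamini-Hochberg, where 2.84% of all genes tested were called lower, and 0 were called higher, where 0.369% of all genes were. The groups did not overlap in 4 members that were lower (BMF, PMAIP1, BBC3 and MCL1) and in 0 that were higher, against 12.1% and 10.0% of all genes tested. The median log2 fold change of the 10 genes was -0.11, beside -0.01 over all genes tested. Because the genes were chosen on this contrast, these counts only describe them. Over the 14 fits made, which include DESeq2, other scalings and the omission of each library in turn, the log2 fold change of BMF ranged from -2.25 to -2.09 and that of PMAIP1 from -1.56 to -1.20. The count of members called was lower without shControl replicate 2 or any 1 of the shSQLE replicates, where PMAIP1 was not among them. Without shControl replicate 1 the members called were BMF, PMAIP1 and MCL1, lower, and BAX and BAK1, higher. In that fit 18.3% of the genes tested were called lower and 15.6% higher.

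The members on which shControl replicate 1 was high or low differed in the GC content of their transcripts. Relative to the mean of shControl replicates 2 and 3, its normalized count was 1.73 for BAX (60.8% GC), 1.59 for BAK1 (58.6%), 1.40 for BBC3 (69.7%), 1.32 for BID (48.0%), 1.22 for BCL2L1 (56.6%) and 1.14 for BMF (54.7%). It was 0.835 for MCL1 (45.1%), 0.811 for BCL2L11 (45.5%), 0.596 for PMAIP1 (36.7%) and 0.471 for BCL2 (44.4%). All members above 1 thus had a higher GC content than all members below 1, although the order within each set did not follow it. With smooth offsets for GC content and transcript length in the fit, the members called were BMF, PMAIP1, BBC3 and MCL1, all lower. In that fit 1081 genes were called lower and 1507 higher, against 354 and 46 without the offsets, so that higher calls outnumbered lower ones.

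**Figure D1:**
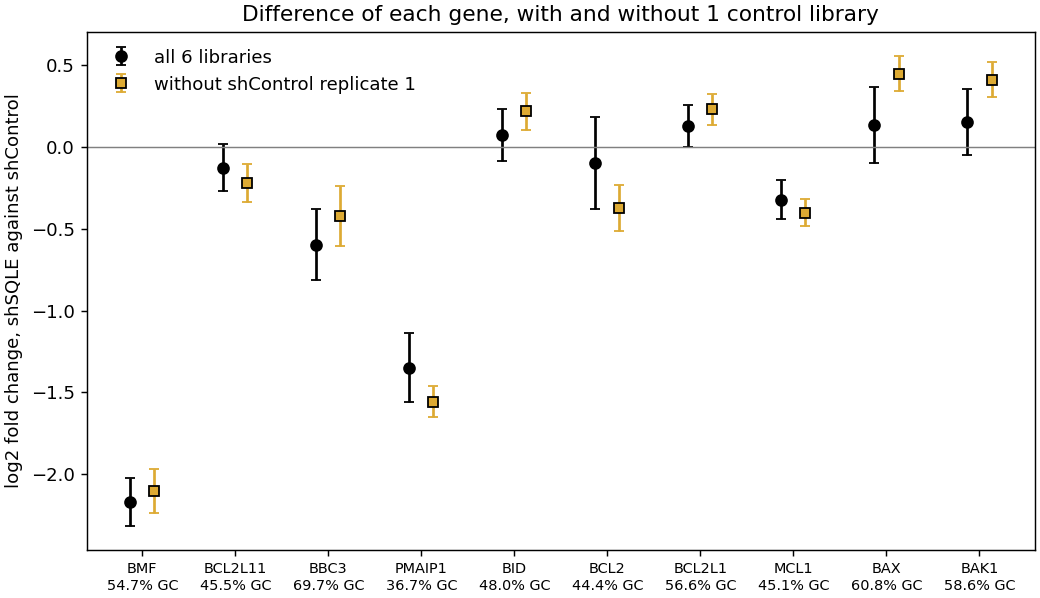
Log2 fold change of shSQLE against shControl (y axis) for each gene (x axis, with the GC content of its canonical transcript), from edgeR with all 6 libraries (circles) and without shControl replicate 1 (squares). Whiskers are standard errors. BMF stays at -2.17 and -2.10, while BAX moves from 0.14 to 0.45 and BCL2 from -0.10 to -0.37.

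Levels between genes were compared per length of the canonical transcript, as TPM over the genes of the table. In shControl the order from the highest was MCL1, PMAIP1, BAX, BCL2L1, BAK1, BID, BMF, BBC3, BCL2L11 and BCL2, from 384 ± 88.1 TPM for MCL1 to 3.63 ± 1.69 TPM for BCL2 (SD, n = 3 each). The ranges of MCL1 and PMAIP1, of PMAIP1 and BAX, and of BMF and BBC3 overlapped, while the other neighbours lay apart. Within libraries, MCL1 was above PMAIP1 in 3 of 3, PMAIP1 above BAX in 2 of 3 and BMF above BBC3 in 2 of 3, so that only the order of the last 2 pairs differed between libraries. In shSQLE the order was MCL1, BAX, PMAIP1, BCL2L1, BAK1, BID, BCL2L11, BBC3, BCL2 and BMF, where the ranges of MCL1 and BAX and of BCL2L11 and BBC3 overlapped, and the first of each pair was the higher in 1 of 3 libraries. BMF thus went from place 7, at 10.2 ± 0.668 TPM, to place 10, at 2.16 ± 0.265 TPM, below the range of BCL2. PMAIP1 stood at 317 ± 120 TPM in shControl and 115 ± 16.4 TPM in shSQLE. The order of places was the same with the length of the longest transcript.

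The role sums include BMF and PMAIP1, whose lower counts were known when the members were chosen, and are a description too. Summed by role, the BH3-only members were lower in shSQLE, whereas the sums of the other roles overlapped. The BH3-only members summed to 237, 432 and 458 TPM in libraries 1, 2 and 3 of shControl and to 174, 144 and 166 TPM in those of shSQLE. All shSQLE sums lay below all control sums, and PMAIP1 made up 83.1% of the sum in shControl and 71.3% in shSQLE on average. Without PMAIP1 the sum was 58.3 ± 1.31 TPM in shControl and 45.8 ± 1.01 TPM in shSQLE (SD, n = 3 each), again with no overlap. That sum still held BMF, whose difference was also known beforehand, at 10.2 TPM in shControl and 2.16 TPM in shSQLE. Mean levels in shControl and shSQLE were 9.71 and 6.13 TPM for BBC3, 7.33 and 6.32 TPM for BCL2L11, and 31.0 and 31.2 TPM for BID. BMF alone made up 2.92% ± 0.931 of the BH3-only sum in shControl and 1.34% ± 0.0465 in shSQLE.

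The anti-apoptotic members summed to 465 ± 91.5 TPM in shControl and 373 ± 45.8 TPM in shSQLE, and the effectors to 308 ± 54.4 and 329 ± 22.4 TPM. The ratio of the BH3-only to the anti-apoptotic sum was 0.657, 0.861 and 0.861 in libraries 1, 2 and 3 of shControl and 0.494, 0.420 and 0.389 in those of shSQLE, so that the groups lay apart. PMAIP1, whose difference was known beforehand, made up 83.1% of the BH3-only sum in shControl and 71.3% in shSQLE. The ratio therefore largely follows that gene, and it does not show a shift of the BH3-only genes as a class. The ratio of BMF to BCL2L11, which bind dynein light chains alike, was 1.44 ± 0.297 in shControl and 0.345 ± 0.0516 in shSQLE. The ratio of BAX to BCL2 ranged from 48.3 to 187 in shControl and from 67.0 to 110 in shSQLE, and it did not separate the groups. These are RNA levels of bulk cultures, in which fewer cells that express a gene and less RNA per cell cannot be told apart.

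**Figure D2:**
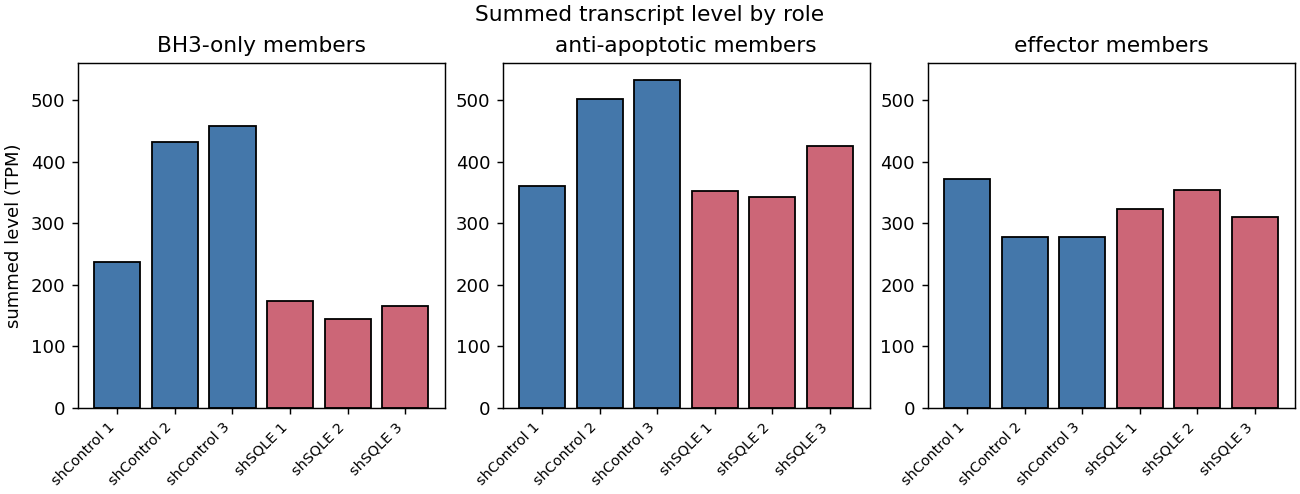
Summed TPM (y axis, from 0) of the BH3-only, anti-apoptotic and effector members in each library, shControl in blue and shSQLE in red, 1 bar per library. The BH3-only sums of 144 to 174 TPM in shSQLE lie below the 237 to 458 TPM of shControl, while the bars of the other roles overlap.

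The promoters of BMF and PMAIP1 are shown because these were the members that were lowest in shSQLE relative to shControl. The first 220 bases of each window of the RefSeq promoter table (GRCh38.p14), which starts 250 bases before the start site, are printed 5′ to 3′, and of the 2 start sites of BMF in that table the one farther upstream is shown. Capitals mark TGACG, the core of the cAMP response element that ATF and CREB proteins bind, on either strand.
BMF promoter, chr15:40108910-40109129, - strand: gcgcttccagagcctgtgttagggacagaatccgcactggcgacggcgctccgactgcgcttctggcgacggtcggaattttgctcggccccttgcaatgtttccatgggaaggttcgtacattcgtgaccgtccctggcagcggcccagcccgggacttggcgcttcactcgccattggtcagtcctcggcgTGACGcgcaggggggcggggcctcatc
PMAIP1 promoter, chr18:59899746-59899965, + strand: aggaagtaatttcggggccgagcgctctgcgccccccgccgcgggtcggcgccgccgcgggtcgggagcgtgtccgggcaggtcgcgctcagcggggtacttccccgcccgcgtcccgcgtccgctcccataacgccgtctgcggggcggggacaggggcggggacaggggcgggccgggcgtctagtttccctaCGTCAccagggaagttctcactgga
Each window held 1 such match, which began 57 bases before the start site in BMF and 55 bases before it in PMAIP1. The other window of BMF held none, while the windows of BAX and BCL2 and 1 of the windows of BCL2L1 held a match as well. The same letters occur in 24.6% of the 35116 promoter windows of that length. TGATGNAA, the core of the amino acid response element, was in none of the windows of the 10 genes (3.62% of all windows), and TGTTTAC, a FOXO motif, was in 1, that of BCL2L11 (3.42% of all windows). A match is a description of the letters only.

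The genes whose profile over the 6 libraries was most like that of BMF were found by the root mean square difference of log2 CPM values centred on each gene's mean. They were HERC6 (0.14), COL5A1 (0.15), IFIT1 (0.15), IFI44 (0.15) and IGFBP5 (0.15), where the profile of BMF itself had a root mean square of 1.08. That profile is mostly the difference between the groups, and the log2 fold changes of these genes lay from -2.24 to -1.94. Likeness here thus mainly means a difference of similar size, and shared regulation was not tested. HERC6, IFIT1 and IFI44 are known as interferon-induced genes, COL5A1 encodes a fibrillar collagen chain and IGFBP5 a binding protein of insulin-like growth factors. The normalized count of HERC6 was 467 ± 10.7 in shControl and 118 ± 2.47 in shSQLE, and that of IGFBP5 was 433 ± 21.4 and 91.6 ± 21.1 (SD, n = 3 each). The nearest profiles to PMAIP1 were those of GNG2 (0.09), RELN (0.10) and FGF2 (0.10), and in each of these the SD in shControl was larger than in shSQLE, as it was for PMAIP1.

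Beyond the 10 members, 98 other genes of the pathway were compared in 11 lists, of which 83 passed the filter. Of these 83 genes, 45 had a negative and 38 a positive log2 fold change, with a median of -0.03. At an adjusted p under 0.05 over all genes tested, 2 were lower and 0 higher, which is 2.41% of the 83 against 2.84% of all genes tested, and 14 (16.9%) had an unadjusted p under 0.05, against 14.7% of all genes tested. The 2 genes were DDIT3 and GDF15. With DESeq2 the called genes were DDIT3, GDF15, BIRC3, PHLDA3 and TRIB3, lower, and VDAC3, higher.

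DDIT3 encodes CHOP, a transcription factor of endoplasmic reticulum stress that is known to regulate BH3-only genes. DDIT3 had 361, 256 and 234 normalized counts in libraries 1, 2 and 3 of shControl and 96.9, 118 and 77.1 in those of shSQLE. All shSQLE libraries were below all control libraries. Its log2 fold change was -1.54 (standard error 0.23, adjusted p = 0.0124 by the edgeR fit). The adjusted p was 0.0844 without shSQLE replicate 1 and 0.0854 without shSQLE replicate 3. Of its neighbours in the stress response, taken up after their values were seen, TRIB3 had a log2 fold change of -0.83 (adjusted p = 0.173 by the edgeR fit), and ATF4, which encodes an activator of both, had 0.41 (adjusted p = 0.300 by the edgeR fit). Both were called without shControl replicate 1, at -0.50 and 0.62. The list of 9 regulators had 1 gene called and a median of 0.06.

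GDF15, a secreted stress cytokine that is known to respond to CHOP, had low counts. Its normalized counts were 48.5, 28.9 and 39.2 in libraries 1, 2 and 3 of shControl and 9.79, 17.7 and 12.3 in those of shSQLE (log2 fold change -1.53, standard error 0.32, adjusted p = 0.0475 by the edgeR fit). When each library was omitted in turn, GDF15 was called in the fit without shControl replicate 1 and in none of the other 5. The other genes of its list, which holds stress response genes, did not pass with all libraries: 17 of 20 were tested, 13 had a negative log2 fold change, and the median was -0.10. Without shControl replicate 1, 5 of the 18 tested with GDF15 were called lower, among them PERP and PHLDA3, and 1, FDXR, higher. These are 27.8% and 5.56%, against 18.3% and 15.6% of all genes tested in that fit. With the offsets for GC content and length, GDF15, PERP and PHLDA3 were called lower. CDKN1A, a cell cycle inhibitor of the same list, was at 0.01 (adjusted p = 0.991 by the edgeR fit).

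No other list held a called gene in the fit with all libraries. Among the remaining BH3-only genes BNIP3, which encodes a mitophagy receptor, had the smallest p (log2 fold change -0.24, adjusted p = 0.435 by the edgeR fit), and HRK was too low to be tested. The anti-apoptotic relative with the smallest p was BCL2A1 (0.44, adjusted p = 0.518 by the same fit), and BCL2L10 had no count. Of the atypical members, BCL2L13, a mitochondrial outer membrane protein, was at 0.26 (adjusted p = 0.262 by the same fit).

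With all libraries no gene passed in the lists of anchors, of kinases and turnover factors, or of mitochondrial release, but calls in these lists depended on the fit. MYO5B, a myosin of the type that carries dynein light chains, had a log2 fold change of -0.58 (adjusted p = 0.151 by the edgeR fit), and the light chain genes DYNLL1 and DYNLL2, the anchors of BIM and BMF, were at 0.06 and -0.06. BTRC, a ubiquitin ligase subunit, was at -0.57 (adjusted p = 0.204 by the same fit). Among the 10 genes of mitochondrial release and the apoptosome, VDAC3, a pore of the outer membrane, was at 0.37 (adjusted p = 0.0994 by the same fit), with 1632, 1512 and 1638 normalized counts in shControl and 2056, 2122 and 2019 in shSQLE. The 2 groups did not overlap. MYO5B, BTRC and VDAC3 were called both without shControl replicate 1 (log2 fold changes -0.74, -0.72 and 0.39) and with the offsets for GC content and length, as were ACTB, AKT2, RPS6KA1 and HTRA2, all higher. Without that library DYNLL2 changed sign, from -0.06 to 0.05.

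Further down the pathway, CASP6, an executioner caspase, was at 0.41 (adjusted p = 0.197 by the edgeR fit), and the 7 genes tested of the caspase list had a median of 0.13. BIRC3, an inhibitor of apoptosis protein that NF-kB induces, was at -0.88 (adjusted p = 0.0568 by the same fit), with 159, 215 and 250 normalized counts in shControl and 122, 115 and 102 in shSQLE. FAS, the receptor of FAS ligand, was at -0.51 (adjusted p = 0.149 by the same fit), and the 8 genes tested of the death receptor list had a median of -0.09, while 6 of the 14, among them TNF, TNFSF10 and FASLG, were too low to be tested. Without shControl replicate 1 CASP6 (0.40), BIRC3 (-1.04) and FAS (-0.52) were called. Of the family genes outside the 10 members, BAD (0.54), a BH3-only gene, BCL2A1 (0.65), BCL2L12 (0.43) and BCL2L13 (0.24) were called higher in that fit. With the offsets for GC content and length, CASP6, BIRC3 and BCL2L13 were called in the same directions. FAS, BAD, BCL2A1 and BCL2L12 were not called with the offsets.

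**Figure D3:**
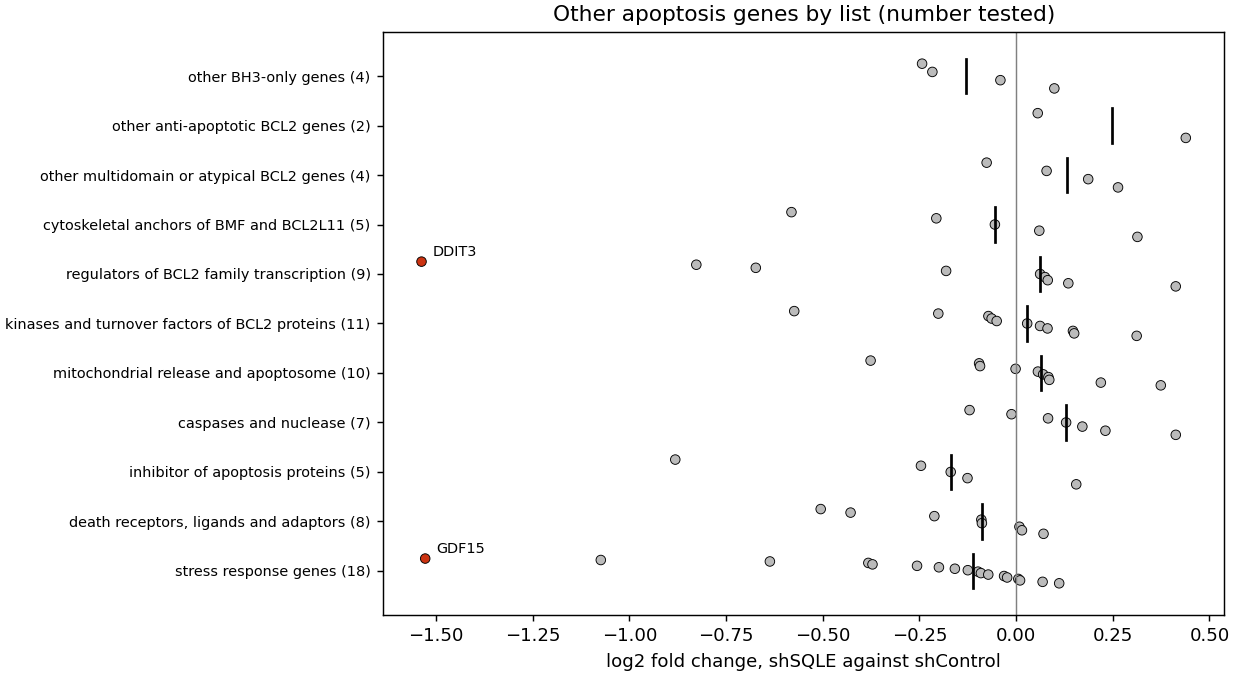
Log2 fold change of shSQLE against shControl (x axis) of the 83 genes tested in 11 lists (rows, with the number tested); each point is a gene, red points are called at an adjusted p under 0.05 in edgeR and black bars are list medians. The red points are DDIT3 at -1.54 and GDF15 at -1.53, and the medians lie between -0.17 and 0.25.

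Without shControl replicate 1 the counts over these lists were much higher in both directions. Of the 83 genes, 19 were called lower and 16 higher, which is 22.9% and 19.3%, against 18.3% and 15.6% of all genes tested in that fit. Of the 5 inhibitor of apoptosis genes tested, BIRC2, BIRC3, BIRC6 and XIAP were called lower and BIRC5, which encodes survivin and acts in mitosis, higher. In the fit of all libraries with offsets for GC content and length, BIRC3 alone of these 5 was called. Among the regulators of transcription DDIT3, FOXO1, FOXO3 and TRIB3 were called lower without shControl replicate 1, and the genes called higher included ATF4 and E2F1. With the offsets DDIT3, FOXO1, TRIB3 and ATF4 were called in the same directions, while FOXO3 and E2F1 were not called.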

How the data were processed

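RNA-seq of 3 shSQLE and 3 shControl libraries of U2OS cells was analysed. The submitters' processing notes name fastp 0.20.0, STAR 2.7.9a, featureCounts 2.0 and the build hg38 as what the authors used. The deposited values are these raw counts, not normalized. The annotation, the strand setting and the handling of reads with several hits are not given in the sources used here.

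Of 19937 identifiers, 19905 matched a symbol. With R 4.3.3, counts were filtered with edgeR 4.0.16 (filterByExpr, 12450 genes left), scaled by TMM and tested with the quasi-likelihood fit of edgeR, condition being the only term, with Benjamini-Hochberg adjustment over all genes and a threshold of 0.05. Standard errors are the log2 fold change divided by the square root of F. Log2 CPM used a prior count of 2. TPM was computed with GENCODE v44 canonical transcript lengths. The script was tested on simulated data. Alternatives were DESeq2 1.42.0, other size factors and filters, a replicate block, each library left out, and offsets on GC content and length (mgcv 1.9.3).

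The members and lists were chosen with earlier results of these data known. The genes named are SQLE, the members, the called genes of each list or, with none called, the gene with the smallest p, and the nearest profiles. TRIB3, ATF4, CDKN1A, DYNLL1, DYNLL2, the untested genes and the genes called only under an alternative were named after their values were seen. Counts of 3 or fewer were taken as the floor. The factor by which the genes of the list holding GDF15 and CDKN1A were gathered is not reported here.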

Additional observations from a re-analysis of the deposited data

How the results depend on the processing

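The log2 fold changes of all 10 members moved by less than their spread between replicates under every alternative to the scaling, the filter, the test and the offsets, and in the fits that left out a library they ranged from -2.25 to -2.10 for BMF, -0.22 to -0.07 for BCL2L11, -0.73 to -0.42 for BBC3, -1.56 to -1.20 for PMAIP1, 0.00 to 0.22 for BID, -0.37 to 0.11 for BCL2, 0.06 to 0.23 for BCL2L1, -0.40 to -0.25 for MCL1, 0.00 to 0.45 for BAX and 0.04 to 0.41 for BAK1. The counts of calls depended on the processing. Over all genes, 354 lower and 46 higher calls became 568 and 162 with DESeq2 and 1081 and 1507 with GC content and length taken out. In the 83 other apoptosis genes, 2 lower and 0 higher calls became 5 and 1 with DESeq2, 9 and 10 with those offsets, and 1 lower call (DDIT3) with RLE size factors. Leaving out 1 library gave from 101 (without shSQLE replicate 3) to 2300 (without shControl replicate 1) lower and from 4 (without shSQLE replicate 1) to 1964 (without shControl replicate 1) higher calls over all genes, and from 0 to 19 lower and 0 to 16 higher calls in the apoptosis lists. The cause was not tested. The replicate numbers gave no pairing, since deviations from the group means correlated at 0.14, -0.43 and 0.54 for numbers 1, 2 and 3. With the replicate block, 362 genes were called lower and 34 higher, and of the lists 3 genes lower (DDIT3, PHLDA3 and TRIB3), while GDF15 had an adjusted p of 0.0605. With the longest in place of the canonical transcript the TPM of BMF in shControl was 12.9 and the order of the members was unchanged. The depth limits GDF15, with 10 to 42 counts per library, and left 15 list genes untested.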
